A study of Mus musculus with 54 samples.

Results

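Complex I of the respiratory chain was followed here through the 46 protein-coding genes whose names start with Nduf, out of 54356 genes in each table of the hearts and livers. The name and the gene type alone decided which genes belong, and no measured value entered that rule. The rule was set with earlier results of these data known. Of the 46, 7 encode the catalytic core subunits that are made in the cytosol, 10 encode accessory subunits of the matrix arm, 9 accessory subunits of the proximal membrane arm and 10 those of the distal membrane arm. Another 8 encode assembly factors (Ndufaf1 to Ndufaf8), and the last 2 are Ndufa4, which was named as a complex I subunit but is found with cytochrome c oxidase, and its paralog Ndufa4l2. Another 5 features that carry the name are pseudogenes or a non-coding RNA and were not counted.

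The RNA came from total hearts and total livers of C57BL/6 mice at 20 weeks of age, all of them on a high-fat diet (42% of the energy from fat). There were 3 mice of each of 3 genotypes: Mrps12+/+ (WT), Mrps12ep/ep (EP), homozygous for an error-prone allele, and Mrps12ha/ha (HA), homozygous for a hyper-accurate allele. Mrps12 encodes the protein at the decoding site of the mitochondrial ribosome, and both alleles are carried in the germline, so every cell of an EP or HA mouse holds the allele. Behind the values stand 54 libraries, since each organ was sequenced in 3 technical repeats, which the authors combined in 1 column. P-values thus measure the spread between mice. No mice on a normal diet are among these samples, so the diet is common to every group.

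Complex I oxidises NADH, passes the electrons to ubiquinone through flavin and iron-sulphur clusters in its matrix arm, and pumps protons with its membrane arm. It is built from nuclear subunits and from subunits of the mitochondrial genome, which are translated on the ribosome that holds MRPS12. The heart depends on it more than most tissues because nearly all of its ATP comes from oxidative phosphorylation. Assembly factors join the arms in a fixed order and leave the finished enzyme. Transcripts of the mitochondrial genome were not in the tables, so the ND subunits were not analysed here.

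Whole reads on genes ranged from 11202866 to 51480271 in the hearts and from 21238036 to 81518399 in the livers. The shallowest heart was that of HA mouse 2, and the fewest reads that any of the 46 genes had in a heart were 158. In a liver the fewest were 42, for Ndufa4l2 in EP mouse 3. All 46 genes passed the minimum mean of 10 normalized counts in both tissues. Mrps12 itself had 1078 ± 67.9 normalized counts in WT hearts (mean ± SD, n = 3), 1161 ± 117 in EP and 1271 ± 165 in HA hearts; the alleles change the protein, so this level does not check the labels. The 8 ventricular markers, all above 0, summed to 2585244, 2778326 and 2473386 in the WT hearts, 2883074, 2127906 and 2487060 in EP and 3665316, 2930068 and 3279710 in HA, so that every HA heart lay above every other heart in this sum. A sum weighs the most abundant markers most. Taken singly, 2 of the 8 lay wholly above WT in HA hearts and 1 wholly below, against 11.1% and 10.0% of all genes. The 12 hepatocyte markers summed to 6787272, 6541894 and 6915328 in the WT livers, 7928674, 7351296 and 7727192 in EP and 7295782, 7159094 and 7627930 in HA, so that every mutant liver lay above every WT liver in this sum. Taken singly, 2 of the 12 lay wholly above WT in HA livers and 1 wholly below, against 10.0% and 9.81% of all genes. In EP livers 4 lay wholly above and 0 wholly below, against 6.49% and 6.28% of all genes. Several libraries stood apart. The 8 atrial markers, such as Nppa, summed to 12062, 180901 and 133845 in the WT hearts, to 5667, 416304 and 104160 in the EP hearts and to 8005, 9483 and 14107 in the HA hearts. The 5 erythroid markers summed to 91865 to 235641 in the WT hearts, 134443 to 219870 in EP and 199245 to 1411965 in HA. In the livers 8 skeletal muscle markers summed to 18388 and 22026 in WT mice 1 and 2 against 27 to 155 elsewhere, and 5 cholangiocyte markers to 12054 in WT mouse 3 against 1334 to 2654. The ventricular markers summed to 8224 in the liver of HA mouse 3, against 46 to 505 in the other livers, and this was the HA liver with the highest median over the Nduf genes (0.19 above the WT mean on the log2 scale). The part of these cells in the differences reported here was not tested, and in whole tissue fewer cells of a type and less RNA per cell cannot be told apart.

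Nduf transcripts were abundant in both tissues. Per kilobase of transcript, the 46 genes took 2.76% ± 0.051 of the summed signal of the WT hearts and 0.669% ± 0.059 of that of the WT livers (mean ± SD, n = 3). The tables were normalized separately, so these shares stand side by side without a test. Ndufa4 led both tissues, with 37640 ± 801 normalized counts per kilobase in WT hearts and 23030 ± 1880 in WT livers. At the other end the heart had Ndufaf6, a factor needed early in assembly, with 357 ± 15 per kilobase, and the liver had Ndufa4l2 with 71.5 ± 20.7. Across the 46 genes the order per kilobase was alike in the tissues (Spearman's rho of 0.89 across genes, which are not independent replicates). Ndufa7 moved most in that order, from place 28 in the heart to place 8 in the liver, followed by Ndufa2, from 31 to 16. In the other direction Ndufv1, which holds the NADH site, was at place 11 in the heart and 22 in the liver.

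HA hearts held more transcript than WT hearts for 36 of the 46 genes, against 47.7% of all genes, and 26 of the higher ones were accessory subunits. The median log2 fold change was 0.29, against -0.02 over all 16057 genes tested. The ventricular marker sum was higher in the same hearts, and its part in the result was not tested. For 26 genes all 3 HA hearts lay above all 3 WT hearts, which was the case for 11.1% of all genes. For none of the 46 did all 3 HA hearts lie below, against 10.0% of all genes. After adjustment over all genes none of the 46 passed the threshold of 0.05 in limma (smallest adjusted p = 0.203). Only 5 genes in the whole heart table did, 0.0311%. Before adjustment 15 of the 46 had a p under 0.05 in limma, all of them higher in HA, and so did 9.64% of all genes in that direction. An exact permutation test of 3 mice against 3 cannot give a p under 0.1.

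**Figure D1:**
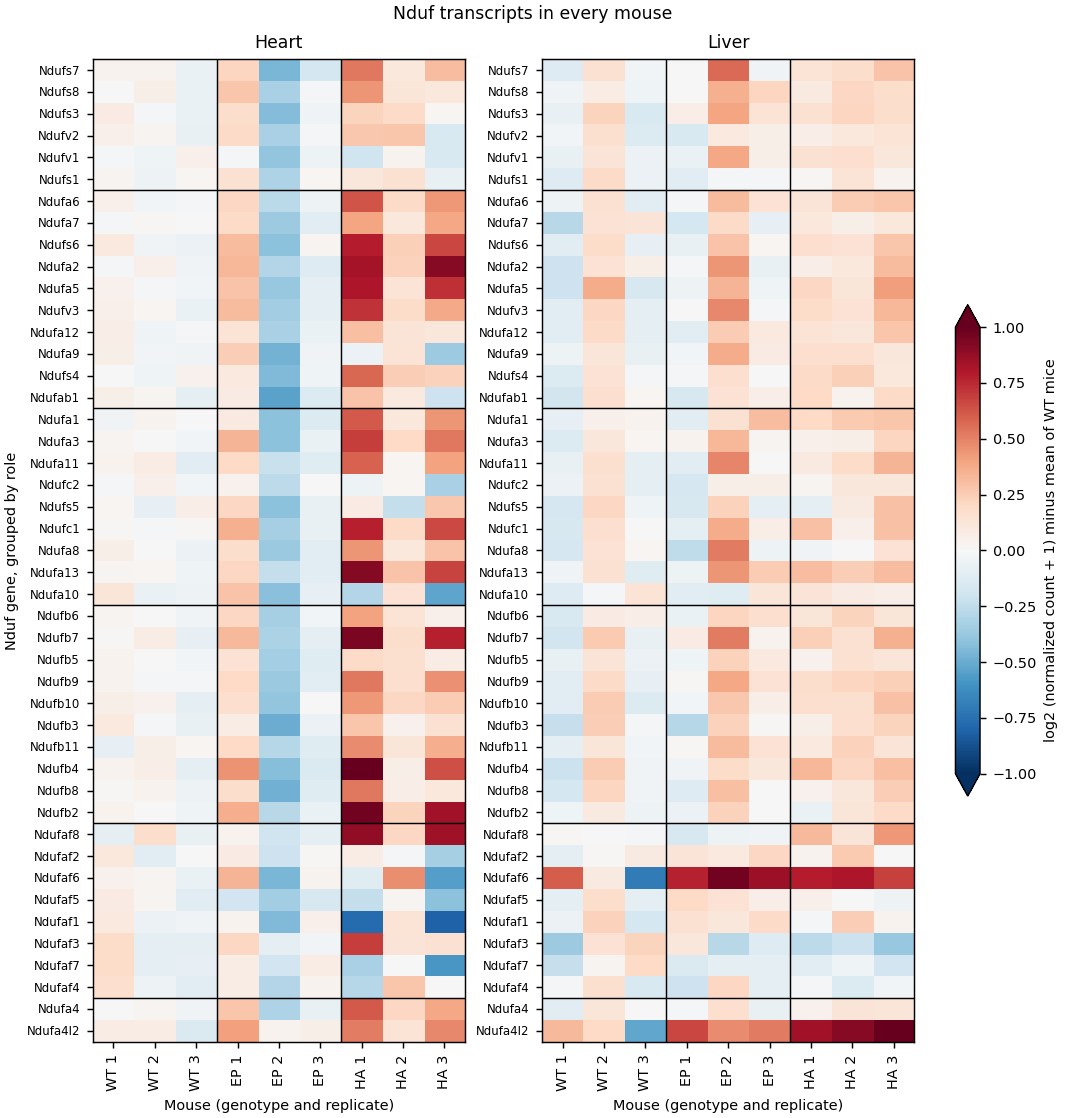
Each row is a Nduf gene (45 are drawn) and each column a mouse of the heart (left) or liver (right), and the colour is the log2 of the normalized count plus 1 minus the mean of the 3 WT mice, with the scale ending at -1 and 1. Most subunits are red in HA hearts 1 and 3, paler in HA heart 2 and blue in EP heart 2, and Ndufaf6 and Ndufa4l2 stand out in the liver.

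The core subunits, which carry the flavin, the iron-sulphur clusters and the quinone site, lay closer to WT than the accessory ones. In HA hearts 6 of the 7 were higher and 1 lower, at a median of 0.13 on the log2 scale, and none had a p under 0.05 even before adjustment. Ndufv1 had 22148, 21647 and 23126 normalized counts in WT hearts and 19466, 22883 and 20086 in HA hearts. The genotypes overlapped, at a log2 fold change of -0.10 ± 0.14 (SE; adjusted p = 0.685, limma). Ndufv2, its iron-sulphur partner, had 15731, 15531 and 14434 in WT and 18349, 18435 and 13723 in HA. HA mouse 3 lay below every WT heart for this gene, and HA mice 1 and 2 lay above. Ndufs1, the largest core subunit, had 25008, 23801 and 24988 in WT and 26579, 27281 and 23318 in HA. The genotypes overlapped, at a log2 fold change of 0.06. Ndufs3, of the connecting part of the matrix arm, had 9971, 9332 and 9019 in WT and 10991, 10776 and 9544 in HA and overlapped as well. For Ndufs7 and Ndufs8 every HA heart lay above every WT heart, as for 11.1% of all genes. Ndufs7, which holds the last iron-sulphur cluster before ubiquinone, had 8385, 8409 and 7834 in WT and 11839.7, 8828 and 10147 in HA, a log2 fold change of 0.31 ± 0.18 (adjusted p = 0.323, limma). Ndufs8, another iron-sulphur subunit, had 6661, 6918 and 6346 in WT and 9007, 7227 and 7133 in HA, at 0.22 ± 0.16 (adjusted p = 0.43).

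Accessory subunits carry no redox centre and stabilise the enzyme. Those of the matrix arm were higher in HA hearts for 9 of 10 genes, at a median of 0.38 on the log2 scale. For 8 of the 10 every HA heart lay above every WT heart, against 11.1% of all genes. Ndufa2, a small thioredoxin-like subunit, had 3476, 3655 and 3431 normalized counts in WT hearts and 6266, 4122 and 6612 in HA hearts. Its HA hearts lay above every WT heart, and HA mouse 2 lay nearest to them, at a log2 fold change of 0.66 ± 0.21 (adjusted p = 0.21, limma). Ndufs6, which binds zinc near an iron-sulphur cluster, had 9518, 8687 and 8566 in WT and 15346, 10516 and 14156 in HA, again with HA mouse 2 lowest (0.56 ± 0.20). Ndufs4, whose loss gives the mouse model of Leigh syndrome, had 5576, 5402 and 5742 in WT and 8309, 6608 and 6528 in HA (0.35 ± 0.16). Ndufab1, the mitochondrial acyl carrier protein, had 14954, 14658 and 13479 in WT and 17509, 15333 and 12411 in HA, and here the genotypes overlapped. The exception of the group was Ndufa9, at a log2 fold change of -0.09, with 14186, 13395 and 13318 in WT and 13115, 14983 and 10584 in HA.

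In the membrane arm all 10 distal accessory genes and 7 of the 9 proximal ones were higher in HA hearts, with medians of 0.31 and 0.34 on the log2 scale. Ndufb2 had the largest log2 fold change of all 46 genes, with 3898, 3819 and 3688 normalized counts in WT hearts and 7411, 4443 and 6815 in HA hearts. The genotypes did not overlap (0.68 ± 0.21, adjusted p = 0.21, limma). Ndufb7, a subunit on the outer face of the inner membrane, had 8294, 8656 and 7796 in WT and 15845, 9287 and 14102 in HA. Ndufa13, also known as GRIM-19, had 13418, 13341 and 12830.1 in WT and 24922, 16049 and 21080.0 in HA, and its adjusted p of 0.203 was the smallest of the 46 genes. Each of these had its lowest HA value in mouse 2. Ndufb4 had 1113, 1139.5 and 1013 in WT and 2249, 1133 and 1697 in HA. Its values are uncertain, since a processed copy, Ndufb4c, was counted beside it with 5085 to 5512 in WT and 5117 to 6362 in HA hearts, and the counting could split reads between them. Ndufa10 and Ndufc2 went the other way. Ndufa10, a subunit related to nucleoside kinases, had 25637, 22578 and 22805 in WT and 19322, 26172 and 16386 in HA, so that HA mice 1 and 3 lay below every WT heart and HA mouse 2 above. Ndufc2 had 3774, 3954 and 3740.0 in WT and 3687, 3875 and 3049 in HA, and the groups overlapped.

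The assembly factors did not share the direction of the subunits. In HA hearts 2 of the 8 were higher and 6 lower, with a median log2 fold change of -0.08. Ndufaf1, which acts with the membrane arm intermediate, had 2061, 1849 and 1889 normalized counts in WT hearts and 1132, 2117 and 1102 in HA hearts. HA mice 1 and 3 lay below every WT heart and HA mouse 2 above every one, at a log2 fold change of -0.48 ± 0.24 (adjusted p = 0.289, limma). Ndufaf7, a methyltransferase, showed the same split of low values in mice 1 and 3, with 1154, 947 and 957 in WT and 812, 1015 and 678 in HA (-0.30 ± 0.17). Ndufaf5, which hydroxylates Ndufs7, had 646, 621 and 562 in WT and 515, 619 and 458 in HA. Ndufaf6 had 398, 394 and 368 in WT and 355, 535 and 264 in HA, a spread among the HA hearts that covered both sides of WT. Ndufaf8, the partner of Ndufaf5, stood with the accessory subunits instead. It had 385, 466 and 392 in WT and 764, 477 and 742 in HA, without overlap, at 0.65 ± 0.19 (adjusted p = 0.206). Ndufaf3, needed at the step where the quinone module forms, had 708, 587 and 582 in WT and 1005, 679.5 and 692 in HA and overlapped. Ndufaf2 overlapped too, at -0.09, and so did Ndufaf4, with 2682, 2316 and 2208 in WT and 1962, 2899 and 2394 in HA.

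Ndufa4 had 17387, 17645 and 16918 normalized counts in WT hearts and 26549, 20038 and 22665 in HA hearts, a log2 fold change of 0.41 ± 0.17 (adjusted p = 0.241, limma). Ndufa4l2, known as a target of the hypoxia pathway, had 695, 697 and 597 in WT and 944, 728 and 922 in HA, at 0.38 ± 0.15 (adjusted p = 0.231). For both genes every HA heart lay above every WT heart.

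**Figure D2:**
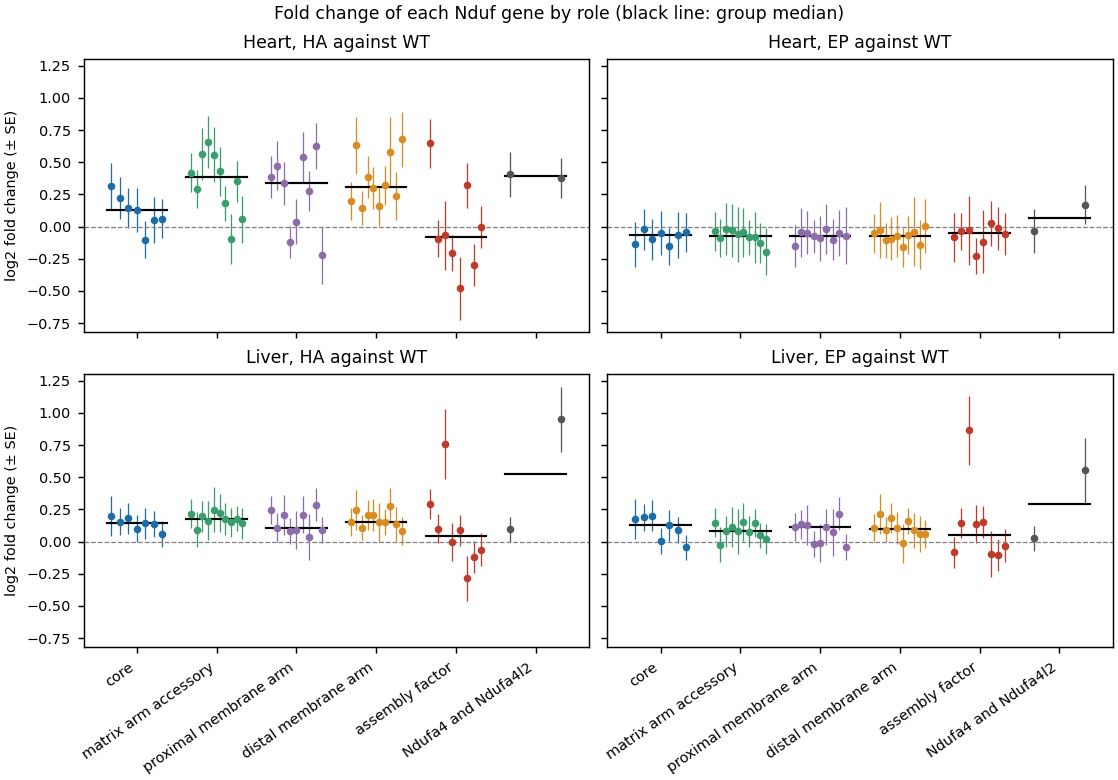
Points are log2 fold changes of the 46 Nduf genes with their standard errors from limma, in columns by role, and black lines are the medians of each role. In HA hearts the accessory subunits sit around 0.31 to 0.38 while the core subunits sit at 0.13 and the assembly factors at -0.08.

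HA mouse 2, the shallowest heart, decided how many genes passed. Without it 17 of the 46 genes had an adjusted p under 0.05 in limma, 15 higher and 2 lower, with 12.2% of all genes called higher and 14.8% lower. The higher ones were Ndufa1, Ndufa2, Ndufa3, Ndufa4l2, Ndufa5, Ndufa6, Ndufa11, Ndufa13, Ndufaf8, Ndufb2, Ndufb4, Ndufb7, Ndufb9, Ndufc1 and Ndufs6, and the lower ones Ndufaf1 and Ndufaf7. No core subunit was among them. In that fit Ndufaf8 stood at 0.87 (adjusted p = 0.00435), Ndufb2 at 0.90 (adjusted p = 0.0076) and Ndufaf1 at -0.79 (adjusted p = 0.00869). Weights estimated for each heart gave HA mouse 2 a weight of 0.167, the lowest of the 9, and 23 of the 46 genes then passed, where 34.7% of all genes did. Leaving out both shallow HA hearts, mice 1 and 2, left 1 of the 46 genes, Ndufaf8, where 9.15% of all genes passed, with the lone HA heart assumed to vary like the others.

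Transcript length moved with these differences. The classes of length were chosen after the values were seen. Of 17 Nduf genes with transcripts of up to 700 nucleotides, 15 were higher in HA hearts, with a median log2 fold change of 0.41. Of 12 genes over 1400 nucleotides, 7 were higher, with a median of 0.06. All tested protein-coding genes followed the same order, with medians of 0.27 for 366 genes of up to 700 nucleotides, 0.10 for 1921 genes in between and -0.08 for 11860 longer genes. Across genes, which are not independent replicates, Spearman's rho of fold change and length was -0.44 over the 46 Nduf genes and -0.16 over 14147 protein-coding genes. The hearts did not share this equally. Relative to the WT mean, the short Nduf genes had medians of 0.62, 0.16 and 0.40 in HA mice 1, 2 and 3, and the long ones 0.10, 0.13 and -0.07. In HA mouse 2 short and long Nduf genes thus differed by little, and in mice 1 and 3 they parted. By annotated length Ndufb2 is an exception, with a median transcript of 2413 nucleotides among its annotated coding isoforms. Which isoforms were expressed was not examined, so its place among the long genes is uncertain. The part of length in the result was not tested.

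**Figure D3:**
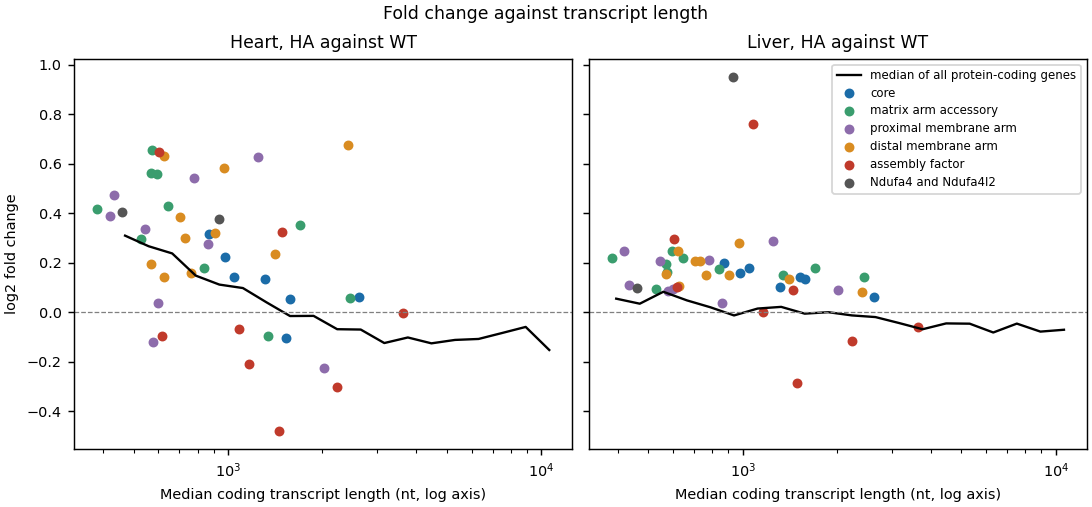
Each point is a Nduf gene at the median length of its annotated coding transcripts (log axis, nucleotides) and its log2 fold change of HA against WT, coloured by role, and the line is the median of all tested protein-coding genes in bins of length. In the heart both the points and the line fall with length, and in the liver most points lie above the line at every length.

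EP hearts lay close to WT. The median log2 fold change was -0.06 and 43 of the 46 genes were lower and 3 higher, against 47.7% of all genes higher, but none had a p under 0.05 in limma before adjustment, against 1.69% of all genes, and the smallest adjusted p was 1.0. No gene in the heart table passed after adjustment, 0.0%. The EP hearts disagreed among themselves. The median over the 46 genes relative to the WT mean was 0.20 in EP mouse 1, -0.35 in mouse 2 and -0.07 in mouse 3, while the WT hearts lay between -0.04 and 0.04. EP mouse 2 is the heart with the highest atrial marker sum, 416304, and EP mouse 1 the one with the lowest, 5667. Without EP mouse 2 the median turned to 0.07 and 41 genes were higher, and without EP mouse 1 it was -0.20. Ndufaf5 was the only one of the 46 genes without overlap, with 533, 478 and 546 in EP against 646, 621 and 562 in WT, at -0.23 ± 0.14. Among all genes 3.64% lay wholly below WT and 4.4% wholly above. Ndufab1 had 15151, 9922 and 13075 in EP hearts (-0.20). The highest log2 fold changes were those of Ndufa4l2, with 878, 677 and 690.2 in EP (0.17), and Ndufaf3, with 719, 582 and 609 (0.03). Both groups overlapped WT. The core subunits had log2 fold changes between -0.16 and -0.02. Ndufv1 had 21999, 16967 and 21528 normalized counts in EP hearts, Ndufv2 17365, 12156 and 15128 and Ndufs1 27314, 19887 and 24918. Ndufs3 had 10667, 6968 and 9179.5, Ndufs7 9508, 5988 and 7271 and Ndufs8 8026, 5289 and 6569. EP mouse 2 was the lowest of the 3 for each of these genes. Ndufa4 had 21016, 13978 and 16451 and overlapped WT.

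Set directly against EP, HA hearts were higher for 39 of the 46 genes, against 47.5% of all genes, with a median log2 fold change of 0.35. None passed after adjustment in limma (smallest adjusted p = 0.234), against 0.0249% of all genes, and 22 had a p under 0.05 before it, all higher in HA, against 9.07% of all genes. Only 5 of the 46 did not overlap, since EP mouse 1 was high, and 8.77% of all genes lay wholly above EP and 7.82% wholly below. Ndufaf8 had the largest difference, 0.73 ± 0.19 (adjusted p = 0.234), from 424, 359 and 388 in EP to the values given for HA. Ndufa2 followed at 0.69 ± 0.21, from 4428, 2871 and 3220.3 in EP, where EP mouse 1 overlapped HA mouse 2. Ndufaf1 and Ndufaf7 were the lowest, at -0.36 and -0.29, with 1982, 1418 and 2001 and 1071, 887 and 1069 in EP. Without HA mouse 2, 17 of the 46 genes passed, 16 higher and 1 lower, where 23.2% of all genes did, 10.4% higher and 12.9% lower. With a weight for each heart 24 passed, where 39.3% of all genes did. Without both shallow HA hearts 1 passed, Ndufaf8, where 6.54% of all genes did.

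**Figure D4:**
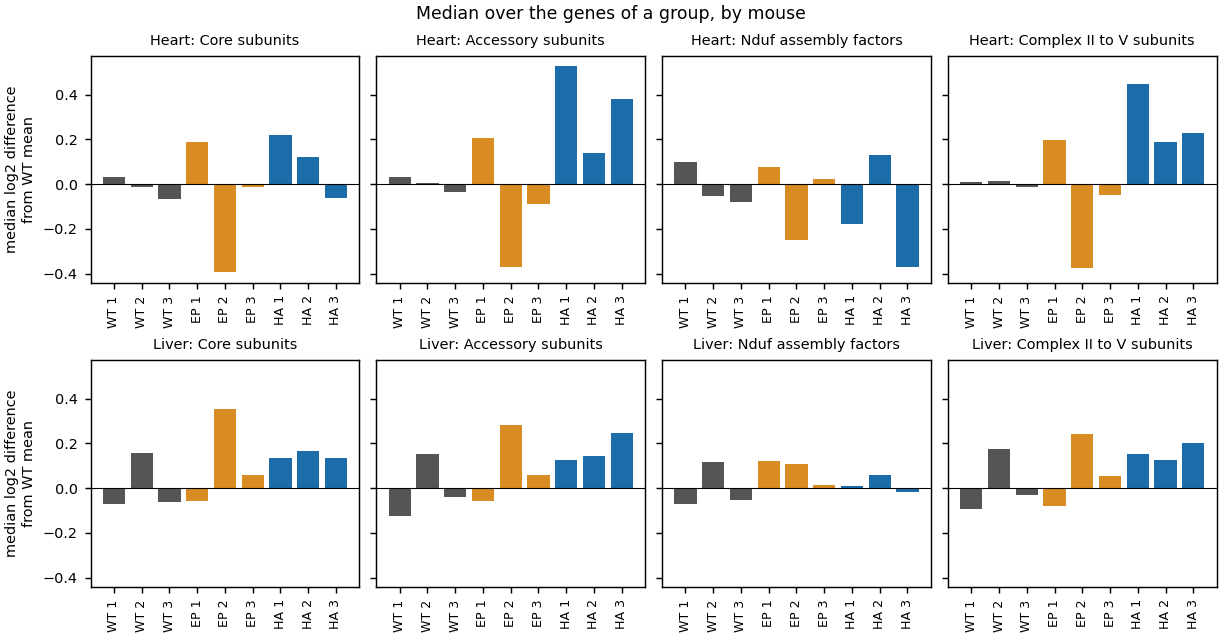
Bars are the median log2 difference from the WT mean over the genes of a group, for each mouse of the heart (top) and liver (bottom), in grey for WT, orange for EP and blue for HA. Among HA hearts the accessory subunits stand at 0.53, 0.14 and 0.38 and the assembly factors at -0.18, 0.13 and -0.37, and EP heart 2 is low in all 4 groups.

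In the liver the differences were smaller and ran the same way for nearly all subunits. HA livers were higher than WT for 43 of the 46 genes, against 47.5% of all genes, with a median log2 fold change of 0.15 against -0.02 over 15314 genes. The hepatocyte marker sum was higher in the mutant livers as well, and its part in the result was not tested. All 7 core and all 29 accessory subunit genes were higher, and the medians were 0.14 and 0.16. None passed after adjustment in limma (smallest adjusted p = 0.17), against 0.00653% of all genes, and 3 had a p under 0.05 before it, against 7.07% of all genes in that direction. The groups did not overlap for 7 genes, all higher, against 10.0% of all genes higher and 9.81% lower, so the members are not far from the background. Among the core subunits Ndufs8 was the only one without overlap, with 3141, 3375 and 3125 normalized counts in WT and 3420.1, 3697 and 3627 in HA livers (0.16 ± 0.10, adjusted p = 0.523). Ndufs7 had 2256, 2743 and 2409 in WT and 2701, 2779 and 2999 in HA, and Ndufv1 5929, 6821 and 5977 and 6921, 6993 and 6734. WT mouse 2 lay inside or near the HA range for these core genes, and WT mice 1 and 3 lay below. Ndufv2 had 4829.5, 5515 and 4486 in WT and 5159.9, 5286 and 5404 in HA, and Ndufs1 5156, 6433 and 5413 and 5688, 6189.9 and 5785. Ndufs3 had 4237, 5191 and 4010.3 in WT and 4941, 5160.0 and 5033 in HA. All of these overlapped, and their log2 fold changes lay between 0.06 and 0.20.

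The genes with the largest differences in the liver were not subunits of the enzyme. Ndufa4l2 was scarce there, with 81.2, 74.4 and 44.8 normalized counts in WT, 104, 90.3 and 93.2 in EP and 117, 122 and 140.4 in HA livers. The 3 genotypes did not overlap, in the order WT, EP, HA. The EP value of mouse 3 rests on 42 reads, so the step from EP to HA stands on few reads. The log2 fold change was 0.95 ± 0.26 in HA (adjusted p = 0.17) and 0.55 ± 0.26 in EP (adjusted p = 0.523, limma). Without WT mouse 3 these were 0.69 and 0.29. Ndufaf6 had 514, 359.8 and 208 in WT, 577, 659.9 and 613 in EP and 583, 590.4 and 543 in HA. Both mutants lay above every WT liver and overlapped each other, at 0.76 ± 0.27 in HA (adjusted p = 0.266) and 0.87 ± 0.27 in EP (adjusted p = 0.434). The WT livers spread widely, and WT mouse 3, the one with the high cholangiocyte markers, was the lowest. Without it the values were 0.41 and 0.52. Both comparisons share the WT mice, so they are not independent. Ndufaf8 had 424, 419 and 416 in WT livers, 526, 458 and 566 in HA and 375, 405 and 408 in EP. Every HA liver lay above WT and every EP liver below, at 0.29 ± 0.12 (adjusted p = 0.317) and -0.08 ± 0.12 (adjusted p = 0.836). Ndufa4, in contrast to its paralog, had 9761, 11484 and 10537 in WT and 10869.6, 11551 and 11492 in HA (0.10 ± 0.10). At the low end were Ndufaf3, with 393, 560.4 and 590.3 in WT and 424, 437 and 389 in HA (-0.28), and Ndufaf7, with 604, 721 and 813 and 652, 687 and 619 (-0.12), both with overlap.

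**Figure D5:**
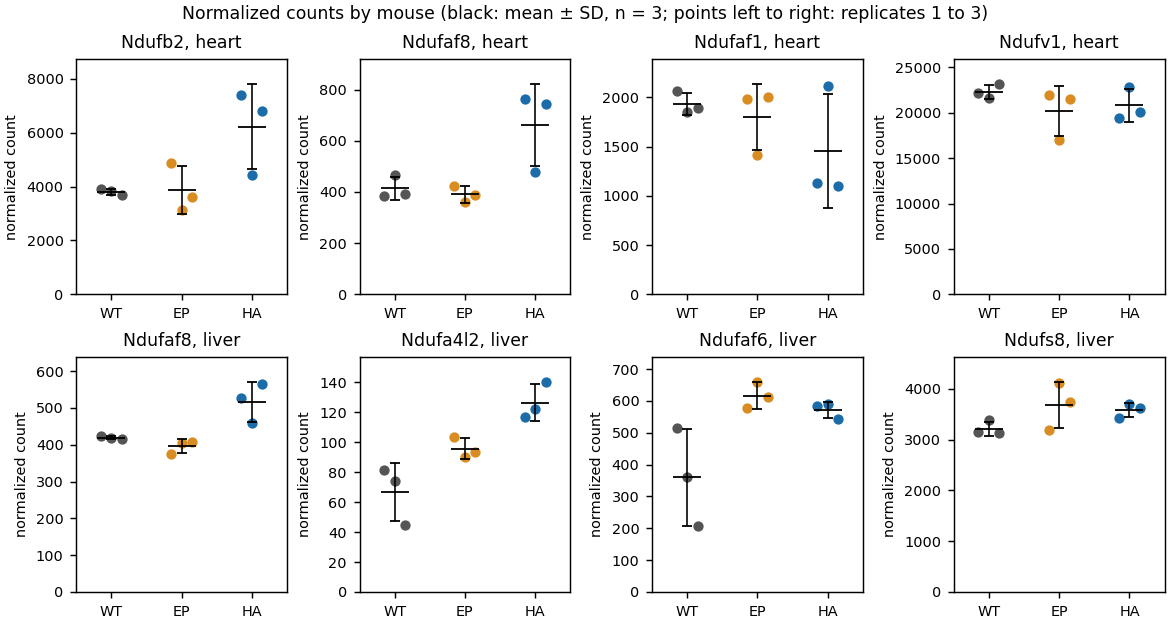
Normalized counts of 8 gene and tissue pairs, with a point for each mouse and the mean ± SD of 3 mice in black. Ndufb2 and Ndufaf8 in the heart are higher in all HA hearts with mouse 2 nearest to WT, Ndufaf1 splits the HA hearts, and in the liver Ndufa4l2 steps from WT to EP to HA while Ndufaf6 is scattered in WT.

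EP livers differed from WT by less. The median log2 fold change over the 46 genes was 0.10 and 36 were higher, against 48.9% of all genes. Only 1 had a p under 0.05 before adjustment (Ndufaf6), against 4.62% of all genes in that direction, and none passed after it (smallest adjusted p = 0.434, limma), against 0.00653% of all genes. Only 3 genes, Ndufa4l2, Ndufaf2 and Ndufaf6, lay wholly above WT, against 6.49% of all genes, and 1, Ndufaf8, wholly below, against 6.28%. EP mouse 2 was high, with a median of 0.24 relative to the WT mean, against -0.05 and 0.06 in EP mice 1 and 3, and without it the median was -0.01. Among the core genes Ndufv1 had 5951, 8135 and 6487 normalized counts in EP livers, Ndufv2 4442, 5281 and 5125 and Ndufs1 5238, 5591 and 5589. Ndufs3 had 4659.7, 5854 and 4898, Ndufs7 2471, 3636 and 2406 and Ndufs8 3195, 4106 and 3731. EP mouse 2 was the highest for each of these genes. Ndufa4 had 10484, 11849 and 10059 in EP livers. The lowest log2 fold changes were -0.11 for Ndufaf7, with 639.7, 664 and 666 in EP livers, and -0.10 for Ndufaf3, with 549.5, 418 and 464.

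Between the mutants, HA livers were higher than EP for 34 of the 46 genes, against 49.7% of all genes, with a median of 0.07, and none passed (smallest adjusted p = 0.466, limma), against 0.00653% of all genes. Ndufaf8 was the 1 gene with a p under 0.05 before adjustment, at 0.38 ± 0.12, against 4.17% of all genes in that direction. Ndufa4l2 stood at 0.40 ± 0.26. The lowest were Ndufaf3 at -0.19 and Ndufaf5 at -0.14. Ndufaf5 had 221, 213 and 202 in EP and 199.9, 192 and 186 in HA livers, and the groups did not overlap. Its nearest values were those of EP mouse 3 and HA mouse 1, where 1 read is 2.219 and 2.38 normalized counts. Wholly above EP lay 4 genes, Ndufa4l2, Ndufaf8, Ndufb4 and Ndufs1, against 8.82% of all genes, and wholly below 1, Ndufaf5, against 9.01%.

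The other respiratory complexes gave a picture close to that of complex I. Of 44 subunit genes of complexes II to V, 38 were higher in HA hearts than in WT, at a median of 0.28 on the log2 scale, and none passed after adjustment in limma (smallest adjusted p = 0.196). Their medians by mouse were 0.45, 0.19 and 0.23 in HA hearts and 0.20, -0.37 and -0.05 in EP hearts. Of the 44, 6 were lower in HA hearts, among them Sdha, Sdhc and Sdhd of complex II and Uqcrc2 of complex III. For each of these named genes HA mice 1 and 3 lay below every WT heart and HA mouse 2 above. Sdha had 56705, 56149 and 61660.5 in WT and 31963, 63277 and 32464 in HA hearts. Sdhb, also of complex II, was higher, with means of 25745 in WT and 28428 in HA. In the liver 38 of the 43 tested were higher in HA, with a median of 0.16. The muscle isoforms Cox6a2 and Cox8b had the lowest log2 fold changes there, -2.21 and -2.74. Cox6a2 had 365, 570.1 and 5.7 in WT livers, high in the same 2 mice as the skeletal muscle markers.

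Most assembly genes without the prefix were lower in HA hearts, like most of the Nduf assembly factors. Of 14 such genes, among them Acad9, Ecsit and Timmdc1 of the membrane arm assembly complex, 3 were higher and 11 lower in HA hearts, with a median of -0.20, and none had a p under 0.05 before adjustment. The 3 higher ones, Ecsit among them, lay wholly above WT, and 0 genes lay wholly below, against 11.1% and 10.0% of all genes. In HA livers 10 of the 14 were higher, with a median of 0.08. Of 10 regulators of mitochondrial genes, 7 were lower in HA hearts, with a median of -0.34, and none passed after adjustment (smallest adjusted p = 0.219). Tfam, which packages and transcribes mitochondrial DNA, had 1701, 1389 and 1421 in WT and 849, 1555 and 579 in HA hearts. Ppargc1a, the coactivator PGC-1α, had 5811, 7839 and 8023 in WT and 3242, 10247 and 4032 in HA. For both, HA mice 1 and 3 lay below every WT heart and HA mouse 2 did not. Yy1 was the only regulator without overlap in the heart, with 2083, 2037 and 1921 in WT and 1684, 1779 and 1699 in HA. Its HA hearts lay wholly below WT, as did 10.0% of all genes. In the liver Ppargc1b, the related coactivator PGC-1β, had 106, 150.4 and 24.5 in WT, 151, 218 and 444 in EP and 376, 557 and 321 in HA (2.46 ± 0.63, adjusted p = 0.158). All mutant livers lay above WT, and WT mouse 3 was again the lowest.

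Promoters of the Nduf genes were read from RefSeq (GRCm38.p6), with 250 bases before and 50 after a start site, for 40 of the 46 genes. They are shown because most subunit genes lay higher together in HA hearts. The letters AAGATGG, the core of the YY1 motif, were found on either strand in 8 of the 40 genes (20.0%), against 7.28% of 27025 genes with a promoter. In HA hearts 7 of these 8 genes were higher than in WT, with a median log2 fold change of 0.41, against 24 of the other 32, with a median of 0.21. The Yy1 transcript itself lay lower in every HA heart than in every WT heart. The part of YY1 in these differences was not tested. In all 8 the match lay after the start site, on the strand of the gene. The letters AAGATGG hold an ATG, and whether these matches are translation start codons was not tested. These stretches follow, with the motif in capitals, at chr7:3617385-3617411 for Ndufa3 on the plus strand, chr6:126849099-126849125 for Ndufa9 on the minus strand, chr11:120098934-120098960 for Ndufaf8 on the plus strand, chr19:44555393-44555414 for Ndufb8 on the minus strand, chr3:51408917-51408943 for Ndufc1 on the minus strand, chr13:114388045-114388069 for Ndufs4 on the minus strand, chr13:73328433-73328459 for Ndufs6 on the minus strand and chr10:80249463-80249489 for Ndufs7 on the plus strand.
Ndufa3: cgccaagaacAAGATGGccgggagtaa
Ndufa9: attgtgggagAAGATGGcggccgccgt
Ndufaf8: ggcagggcccAAGATGGcggcgccctc
Ndufb8: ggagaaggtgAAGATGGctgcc
Ndufc1: cctgcggaacAAGATGGcgccgtccgt
Ndufs4: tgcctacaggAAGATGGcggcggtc
Ndufs6: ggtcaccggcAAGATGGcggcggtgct
Ndufs7: ggccgaggccAAGATGGcggcgctggc

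The NRF1 letters GCATGCGC were found in 5 of the 40 genes (12.5%), against 3.05% of all genes: Ndufa6, Ndufa8, Ndufa11, Ndufaf4 and Ndufaf5. In HA hearts 3 of the 5 were higher, with a median log2 fold change of 0.277, against 28 of the other 35, with a median of 0.295. Those 3 are the subunit genes. The 250 bases before the start site are shown for those subunits, with the motif in capitals, at chr15:82354292-82354541 for Ndufa6 on the minus strand, chr2:36049339-36049588 for Ndufa8 on the minus strand and chr17:56717512-56717761 for Ndufa11 on the plus strand, where matches on both strands overlap.
Ndufa6: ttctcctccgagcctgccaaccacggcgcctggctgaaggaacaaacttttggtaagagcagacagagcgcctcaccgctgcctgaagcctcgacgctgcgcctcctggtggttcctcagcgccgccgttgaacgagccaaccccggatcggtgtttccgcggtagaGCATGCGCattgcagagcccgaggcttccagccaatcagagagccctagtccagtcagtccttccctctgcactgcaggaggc
Ndufa8: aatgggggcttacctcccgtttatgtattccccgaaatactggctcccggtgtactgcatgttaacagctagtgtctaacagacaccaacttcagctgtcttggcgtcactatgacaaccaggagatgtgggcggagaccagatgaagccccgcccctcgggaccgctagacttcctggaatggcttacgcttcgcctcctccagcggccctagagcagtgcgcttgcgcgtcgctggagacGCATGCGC
Ndufa11: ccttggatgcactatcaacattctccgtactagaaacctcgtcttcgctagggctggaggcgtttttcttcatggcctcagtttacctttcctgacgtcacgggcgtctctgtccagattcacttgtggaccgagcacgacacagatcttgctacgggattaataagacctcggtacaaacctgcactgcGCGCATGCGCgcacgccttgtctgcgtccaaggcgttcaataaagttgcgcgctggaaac
The letters CCGGAAGT of the GABPA motif were in 1 gene, Ndufs3 (2.5%), against 4.31% of all genes. The letters TCAAGGTCA of the oestrogen-related receptors were in none of the 40 Nduf promoters and in 0.466% of all genes. A match in letters is a description of the sequence, and no binding was measured.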

How the data were processed

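Total RNA of whole hearts and livers was sequenced from 3 mice of each of 3 genotypes. The authors trimmed reads with Trim Galore 0.4.1 and cutadapt 1.18, checked them with FastQC 0.11.8, quantified transcripts with Salmon 1.1.0 (GRCm38.p6) and deposited, per tissue, normalized counts from DESeq2, which were computed without mitochondrial transcripts. The 3 technical libraries of a mouse were combined in 1 value. The deposited tables of fold changes and p-values were not used, and 0 columns of values were left without a sample. Groups came from the labels. Because the tables hold normalized and not raw counts, tests were run on log2(normalized count + 1) with limma 3.58.1 in R 4.3.3 (empirical Bayes variances that follow the mean level), and the 3 genotypes of a tissue shared 1 fit of the genes with a mean of at least 10. Benjamini-Hochberg adjustment ran over all genes tested in a tissue, at a threshold of 0.05. Fold changes on this scale understate those of scarce genes. Low values were whole multiples of 1 step, which gave the whole reads behind each value.

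The 46 genes and the gene lists were chosen with earlier results of these data known. Values in every mouse were given for the core subunits, Ndufa4, Ndufa4l2 and the 2 Nduf genes at either end of each comparison by log2 fold change. Other genes with values in every mouse were chosen after their values were seen. The values of 1 gene are not reported here, though it is in the counts and medians. On simulated data with a log2 change of 1 in 200 genes and a dispersion of 0.02, the fit called 169 of them among 16057 heart genes and 164 among 15314 liver genes. At a dispersion of 0.1 it called 12 and 7. Per-kilobase levels used the median length of annotated coding transcripts. Python 3.11.15, pandas 2.3.3 and numpy 2.4.6 were used for summaries. Alternatives were other pseudocounts, filters, scalings and weights, fewer mice, a replicate block and limma-voom.

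Replicate numbers were not taken to pair the mice, since not every pair of mice with the same number deviated together. The correlations of their deviations from the group means were 0.58, 0.41 and -0.07 for EP and WT hearts. Over all comparisons they ranged from -0.23 to 0.58 in the hearts and from -0.13 to 0.16 in the livers.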

Additional observations from a re-analysis of the deposited data

Results flagged for a closer look

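Ndufaf8 in the liver stood out because the 2 mutants lay on opposite sides of WT. The HA livers had a mean of 516.5 normalized counts and lay above every WT liver, and the EP livers lay below every WT liver. The EP side was small, at -0.08 ± 0.12 on the log2 scale (adjusted p = 0.836, limma). Its nearest values were 408.4 in EP mouse 3, where 1 read is 2.219 normalized counts, and 415.8 in WT mouse 3. The direct difference of HA against EP was 0.38 on the log2 scale and did not pass after adjustment over all genes in limma (adjusted p = 0.466).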

How the results depend on the processing

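The median over the Nduf genes of HA against WT kept its sign in both tissues under every alternative run, as did HA against EP in the heart. The other medians lay near 0 and changed sign: EP against WT in the heart was 0.07 without EP mouse 2, EP against WT in the liver was -0.005 without EP mouse 2 and -0.001 with array weights, and HA against EP in the liver was -0.025 without EP mouse 1. Some single Nduf genes with small differences, none of them past the threshold as reported, also changed sign. Leaving out 1 mouse at a time gave 0 to 17 Nduf genes with an adjusted p under 0.05 in limma for HA against WT and for HA against EP in the heart, and 0 in the other comparisons. The median log2 fold changes then ranged from 0.167 to 0.352 (HA against WT), from -0.204 to 0.072 (EP against WT) and from 0.211 to 0.468 (HA against EP) in the heart, and from 0.106 to 0.218, from -0.005 to 0.172 and from -0.025 to 0.149 in the liver. Over all genes the calls ranged from 3 to 4330, 0 to 1 and 3 to 3730 in the heart and from 0 to 90, 1 to 68 and 0 to 11 in the liver. HA mouse 2 gave the highest heart counts when left out, and WT mouse 2 (90 genes) and WT mouse 3 (76 genes for HA, 68 for EP) the highest liver counts against WT.

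Array weights gave 23 Nduf genes among 5573 of all genes for HA against WT in the heart, 24 among 6314 for HA against EP, and 3 genes in all for EP against WT. In the liver they gave 4 for HA against WT and 13 for HA against EP. Leaving out the 2 shallowest mice of a tissue together, chosen after seeing the data, gave 1 Nduf gene among 1469 for HA against WT and 1 among 1050 for HA against EP in the heart, and 0 genes for EP against WT in the liver. Limma-voom on recovered reads, also chosen after seeing the data, gave 3 genes for HA against WT and 2 for EP against WT in the heart, and 0 for both against WT in the liver. As reported, the counts over all genes were 5, 0 and 4 genes in the heart and 1, 1 and 1 in the liver. For EP against WT in the heart a pseudocount of 0.1 or 8 or a fit of only the 2 genotypes gave 1 gene, and no filter, quantile scaling or robust eBayes gave 2. In the liver a pseudocount of 0.1 or a minimum mean of 50 gave 0 for both mutants against WT, and no filter gave 3 for HA and 2 for EP. Fits of only the 2 genotypes gave 0 for EP against WT and 18 for HA against EP, and robust eBayes gave 4 for HA against EP. The cause of these shifts was not tested.

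With the replicate number as a replicate block, 3 genes passed for HA against WT in the heart, and 7, 9 and 6 in the liver for HA against WT, EP against WT and HA against EP. No Nduf gene was called with the block. The planned edgeR and DESeq2 fits were not run. With 3 mice a group, small differences could not be told from the spread.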

Other observations

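Ndufb1-ps, listed as a non-coding RNA from a shared promoter, was as abundant as many subunits, with 4177, 3623 and 3607 normalized counts in WT hearts, 4606, 2839 and 4012 in EP and 6039.5, 4648 and 5299 in HA hearts. Every HA heart lay above every WT heart, as for 11.1% of all genes. It was among the genes fitted, and its fold change and p-value are not given here. In the livers it ranged from 1929 to 2525 over the 9 mice, and the genotypes overlapped.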
